A study of Mus musculus with 4 samples.

Results

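The genes described here are 9 genes of bone mineralization and phosphate handling, chosen by symbol from the 54532 genes of a bulk RNA sequencing count sheet. They are Alpl, Phospho1, Smpd3 and Enpp1, which encode enzymes of the mineralizing matrix, Slc20a1 and Slc20a2, which encode phosphate transporters, Phex and Fgf23 of the phosphate hormone axis, and Pth1r, the receptor of parathyroid hormone (PTH). All 9 symbols were found, and each matched 1 gene. The comparison set 2 libraries of long-bone periosteal cells from Sfrp4-/- mice against 2 libraries from mice wild type for Sfrp4 (WT), with no treatment. Mice of both genotypes carried CtskCre and the mTmG reporter, so that cells that have expressed the Cre, and their descendants, carry GFP. Ctsk is also the cathepsin gene of osteoclasts, so the label is not particular to cells of the skeletal lineage. The mice were 4 weeks old, and each library was made from the pooled cells of 3 of them, so the spread between libraries is a spread between pools and not between animals. Sorting kept GFP-positive cells with CD200 and discarded those with CD105, 6C3, Thy1.2 or the lineage antigens Ter119, CD31 and CD45.

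Bone mineral forms in small vesicles that osteoblasts and hypertrophic chondrocytes shed into the matrix, and along collagen fibrils. Phosphatases there set the balance between phosphate, which builds the mineral, and pyrophosphate, which blocks it. The tissue-nonspecific alkaline phosphatase encoded by Alpl degrades pyrophosphate, the ectoenzyme encoded by Enpp1 makes it from ATP, and the product of Phospho1 releases phosphate from phosphocholine, which the neutral sphingomyelinase encoded by Smpd3 sets free from membrane lipid. Sodium-coupled transporters carry phosphate into cells. In the circulation phosphate is held by the bone hormone FGF23, whose level rises when the endopeptidase PHEX is lost, and by PTH, which acts on bone cells through its receptor PTH1R. Sfrp4 encodes a secreted protein that binds Wnt ligands, and its loss thins cortical bone in mice and humans.

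Reference sequence is shown for the starts of 3 of these genes, because the results turn on Alpl, on Enpp1, which acts against it on pyrophosphate, and on Slc20a1, the only tested gene of the set whose genotypes did not overlap. Each window runs 5′ to 3′ on the gene's own strand over 300 bases, 250 before and 50 after an annotated start, and comes from RefSeq (GRCm38.p6, the assembly that mm10 denotes). The windows were chr4:137796335-137796634 (minus strand) and chr4:137766426-137766725 (minus strand) for the upstream and the internal start of Alpl, chr10:24712110-24712409 (minus strand) for Enpp1 and chr2:129198523-129198822 (plus strand) for the upstream start of Slc20a1. Capitals mark matches on either strand to the GC box GGGCGG, the TATA box TATAAA, the Runx core TGTGGT and the TCF/LEF core CTTTGA.
Alpl, upstream start: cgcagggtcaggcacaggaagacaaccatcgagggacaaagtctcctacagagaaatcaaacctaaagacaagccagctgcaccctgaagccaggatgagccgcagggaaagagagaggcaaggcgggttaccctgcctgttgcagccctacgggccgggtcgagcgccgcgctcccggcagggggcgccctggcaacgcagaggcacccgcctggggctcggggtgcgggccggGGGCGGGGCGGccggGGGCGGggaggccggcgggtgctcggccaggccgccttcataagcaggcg
Alpl, internal start: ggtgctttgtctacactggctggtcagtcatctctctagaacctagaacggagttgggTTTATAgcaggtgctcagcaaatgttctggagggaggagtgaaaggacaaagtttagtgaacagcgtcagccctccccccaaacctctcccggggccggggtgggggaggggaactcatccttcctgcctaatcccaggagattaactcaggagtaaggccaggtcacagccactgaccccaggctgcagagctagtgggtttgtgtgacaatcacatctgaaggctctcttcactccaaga
Enpp1: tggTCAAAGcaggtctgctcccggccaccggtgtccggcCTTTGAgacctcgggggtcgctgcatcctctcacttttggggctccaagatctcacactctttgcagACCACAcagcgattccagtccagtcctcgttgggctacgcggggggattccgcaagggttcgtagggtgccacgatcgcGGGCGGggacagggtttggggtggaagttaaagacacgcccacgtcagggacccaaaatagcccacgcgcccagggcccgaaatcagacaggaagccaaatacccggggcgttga
Slc20a1, upstream start: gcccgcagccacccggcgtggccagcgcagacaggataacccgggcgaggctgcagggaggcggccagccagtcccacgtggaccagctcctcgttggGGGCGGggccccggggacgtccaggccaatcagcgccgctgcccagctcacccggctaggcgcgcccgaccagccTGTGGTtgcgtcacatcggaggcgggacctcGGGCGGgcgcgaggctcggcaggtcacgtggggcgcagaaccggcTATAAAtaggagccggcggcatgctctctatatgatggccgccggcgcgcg

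The upstream Alpl window held 3 GC boxes, of which 2 overlap by a single base, and none of the other motifs. The internal Alpl window held 1 TATA box and no GC box. The Enpp1 window held 2 TCF/LEF cores, 1 Runx core and 1 GC box. In the Slc20a1 window there were 2 GC boxes, 1 TATA box and 1 Runx core. Of the 32851 windows in the table, 35.7% held a GC box, 13.6% a TATA box, 16.8% a Runx core and 16% a TCF/LEF core, so a match is common and is given as a description. Windows were found for 7 of the 9 genes, and Smpd3 and Slc20a2 were not among them. The count sheet gives 1 value per gene, so transcripts from the 2 Alpl starts, or from the 3 starts of Pth1r, are summed in every value below.

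The 4 libraries held 17119332 to 18750003 counts. By any count at all, 17359 and 20080 genes were detected in Sfrp4-/- libraries, against 16333 and 15400 genes in WT libraries. Both Sfrp4-/- libraries thus lay above both WT libraries in genes detected. The part of this in differences at low counts, such as those of Slc20a1 and Phospho1 below, was not tested. Levels are given as CPM (library-size-scaled counts, with composition factors), and 1 count equalled between 0.0486 and 0.0667 CPM. Sfrp4 itself was at 11.4 and 12.1 CPM in Sfrp4-/- libraries, against 90.8 and 107 CPM in WT libraries, in the direction of the labels (log2 fold change -3.08, edgeR adjusted p = 0.377), and the deleted part of the gene is not given in the sources used here. Ctsk lay between 1054 and 2050 CPM and Cd200 between 442 and 669 CPM, while the 5 measured genes of the excluded antigens summed to 8.85 to 12.5 CPM, with Thy1 at 0 counts in every library. Differences were tested with edgeR's quasi-likelihood test over the 13737 genes that passed a filter on low counts, and 0% of them were called at a Benjamini-Hochberg adjusted p under 0.05, Sfrp4 included. At an unadjusted p under 0.05 there were 291 genes (2.12%).

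Of the 9 genes, 7 passed the filter, and 0 were called, against a background of 0% of all tested genes. With DESeq2 without the filter, edgeR without the filter and edgeR with the replicate number as a block, 0 of them were called too, against 0.0322%, 0.0919% and 0.00728% of all genes in those fits. In the fit reported here, none of the 7 had an unadjusted edgeR p under 0.05, against the 2.12% of all genes. In edgeR without the filter Alpl did (unadjusted p = 0.0327), as did 697 of 21751 genes. With the block Alpl, Smpd3, Phex and Pth1r did, as did 864 of 13737 genes. Alpl, Smpd3, Phex, Pth1r and, by a small margin, Slc20a2 had mean levels below those of WT libraries, while Enpp1 and Slc20a1 had means above them. The median log2 fold change of the 7 tested genes was -0.54, against 0.0031 over all tested genes, with fold changes taken throughout as Sfrp4-/- minus WT. It was 0.14 without WT replicate 1, -0.07 without Sfrp4-/- replicate 2 and -0.86 at the lowest with a library left out. Phospho1 and Fgf23 did not pass the filter and are not part of these counts. In bulk samples, fewer cells of a type and less RNA per cell cannot be told apart.

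**Figure D1:**
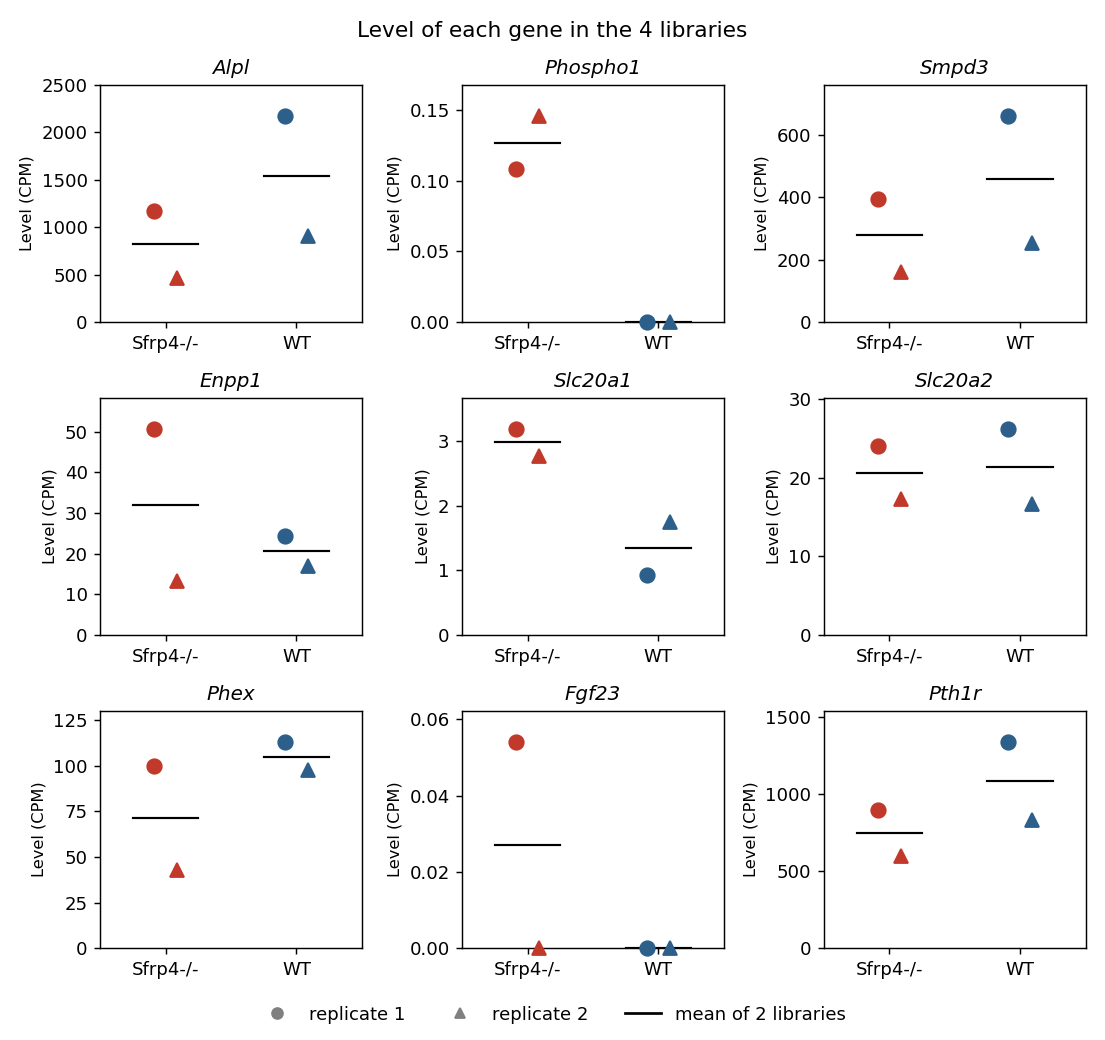
Level in CPM (vertical axes from 0) of each of the 9 genes in the 2 Sfrp4-/- libraries and the 2 WT libraries; circles are replicate 1, triangles replicate 2 and bars the mean of 2 libraries. The genotypes overlap in 6 of the 7 tested genes, and Slc20a1 is the exception, with 3.19 and 2.77 CPM in Sfrp4-/- libraries above 0.934 and 1.75 CPM in WT libraries.

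Levels between genes were compared per length, in TPM (length- and depth-scaled transcript abundance) computed from the deposited gene lengths. Pth1r and Alpl headed the set. Pth1r had 897 and 615 TPM in Sfrp4-/- libraries and 1299 and 733 TPM in WT libraries, and Alpl had 853 and 347 TPM in Sfrp4-/- libraries and 1530 and 575 TPM in WT libraries. Alpl was thus the higher gene of the pair in WT replicate 1 alone, and their ranges overlapped widely. By this measure Alpl ranked 129 and 443 in Sfrp4-/- libraries and 70 and 224 in WT libraries among all genes of the sheet. Smpd3 came next, at 222 and 93.0 TPM in Sfrp4-/- libraries and 359 and 125 TPM in WT libraries, and overlapped Alpl across libraries though not within any. Phex followed at 20.6 to 51.1 TPM over the 4 libraries. The ranges of Smpd3 and Phex did not touch, nor did those of Phex and the next gene. Slc20a2, at 6.85 to 12.0 TPM, and Enpp1, at 3.94 to 14.5 TPM, could not be ordered beyond their spread. Slc20a1 lay lower still, at 0.475 to 1.67 TPM, clear of both. Fgf23 stood at the foot of the order, with at most 0.0871 TPM. Phospho1 was listed at up to 0.216 TPM and is not ranked, because most of its exon bases are shared with other genes, as described below.

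**Figure D2:**
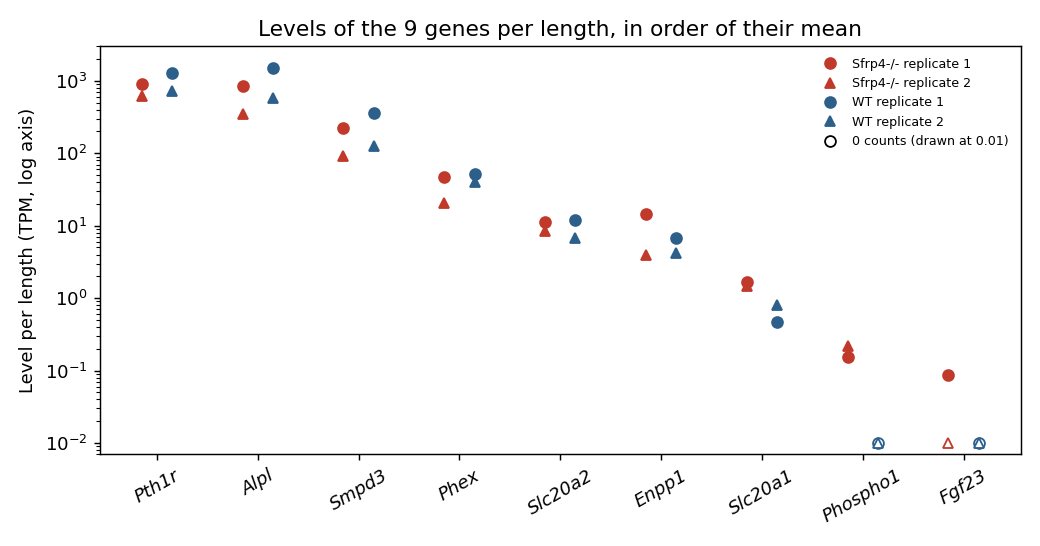
Level per length (TPM, log axis) of the 9 genes in order of their mean over 4 libraries, where the place of Phospho1 cannot be read as a level; Sfrp4-/- libraries are drawn left of WT libraries, circles are replicate 1, triangles replicate 2, and open symbols drawn at 0.01 stand for 0 counts. Pth1r and Alpl lie between 347 and 1530 TPM, and Slc20a1 between 0.475 and 1.67 TPM.

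Among the enzymes, Alpl (ENSMUSG00000028766, minus strand of chromosome 4, 137741733 to 137796384, mm10) had the highest level per length in every library. Its counts were 21763 and 9552 in Sfrp4-/- libraries and 32605 and 15466 in WT libraries, or 1175 and 465 CPM against 2174 and 902 CPM. The genotypes overlapped, because Sfrp4-/- replicate 1 lay above WT replicate 2. The means were 820 ± 502 CPM in Sfrp4-/- and 1538 ± 900 CPM in WT libraries (SD, n = 2 each), and the log2 fold change was -0.91 ± 0.59 (SE), or 0.533 times the WT level, at an edgeR adjusted p of 1.00 (unadjusted p = 0.171). Within each genotype replicate 1 was over replicate 2 by a larger factor than that, 2.53 times in Sfrp4-/- and 2.41 times in WT libraries. The value depended on single libraries, with -0.13 when WT replicate 1 was left out, -0.38 without Sfrp4-/- replicate 2, -1.41 without WT replicate 2 and -1.72 without Sfrp4-/- replicate 1.

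Smpd3, the sphingomyelinase gene (ENSMUSG00000031906, minus strand of chromosome 8, 106252548 to 106337988), ran close to Alpl across libraries. It was at 396 and 162 CPM in Sfrp4-/- libraries and at 662 and 254 CPM in WT libraries, which overlapped in the same way. Its means were 279 ± 166 CPM in Sfrp4-/- and 458 ± 288 CPM in WT libraries (SD, n = 2 each), and the difference on the log2 scale was -0.71 ± 0.59 (SE; edgeR adjusted p = 1.00). Without WT replicate 1 the direction turned, at 0.14, and the other 3 libraries left out in turn gave -0.20 to -1.50. The ratio of Alpl to Smpd3, both per length, kept a narrow range across the libraries, at 3.84 and 3.73 in Sfrp4-/- and 4.26 and 4.61 in WT libraries.

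Enpp1, the pyrophosphate-forming enzyme gene (ENSMUSG00000037370, minus strand of chromosome 10, 24637914 to 24712159), did not share this course. It was at 50.7 and 13.4 CPM in Sfrp4-/- libraries and at 24.3 and 16.9 CPM in WT libraries, so the Sfrp4-/- libraries lay on either side of the WT pair. The log2 fold change of 0.64 ± 0.60 (SE, n = 2 each; edgeR adjusted p = 1.00) rested on Sfrp4-/- replicate 1, and without that library it was -0.61, while without Sfrp4-/- replicate 2 it was 1.31. The ratio of Alpl to Enpp1 per length was 58.9 and 88.0 in Sfrp4-/- libraries, against 228 and 136 in WT libraries. This ratio, which does not depend on how the libraries are scaled, did not overlap between genotypes. Of the 4 ratios between members that were computed, those of Alpl to Smpd3 and of Slc20a2 to Slc20a1 did not overlap either and that of Alpl to Pth1r did. With 2 libraries against 2, an exact permutation test cannot go below a two-sided p of 0.333, so these ratios are given as descriptions. Of single genes, 27.5% of those tested did not overlap between genotypes, and the share over all pairs of genes was not computed.

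Phospho1 (ENSMUSG00000050860, plus strand of chromosome 11, 95824499 to 95832140) had 2 and 3 counts in Sfrp4-/- libraries and 0 in each WT library. The annotation limits what these counts can show. Of its 2029 annotated exon bases in GENCODE M21, 1818 (89.6%) are also exon bases of other genes, 1818 of them shared with Zfp652 on the same strand and 1708 with Abi3 on the opposite strand, and only the 211 bases of its first exon are its own. The coordinates of Phospho1 in the sheet and its length of 2029 bases equal those of M21. The libraries carry no strand, and how reads on shared bases were counted is not given in the sources used here, so the level of Phospho1 cannot be read from this sheet. Zfp652, a zinc finger gene, was at 15.0 and 15.2 CPM in Sfrp4-/- libraries and 17.5 and 18.5 CPM in WT libraries. Abi3 was at 1.35 and 3.65 CPM in Sfrp4-/- and 1.27 and 2.45 CPM in WT libraries. Neither of these values separates reads of the neighbours from reads of Phospho1.

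**Figure D3:**
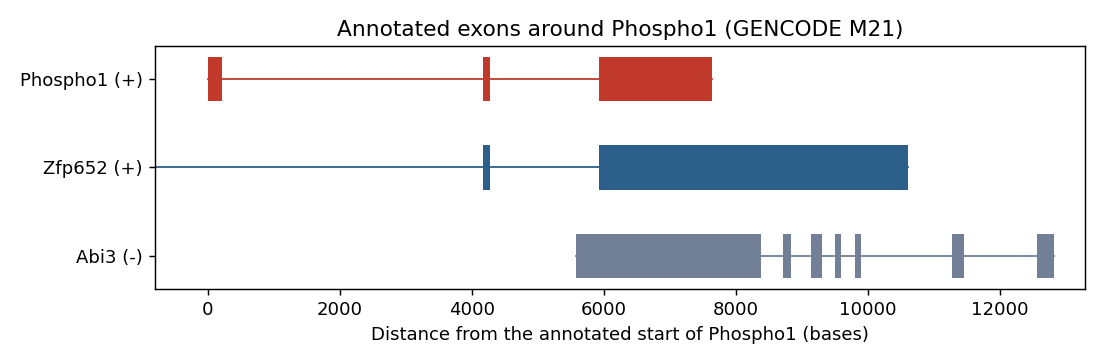
Annotated exons (boxes) of Phospho1 and of the 2 genes that overlap it, by distance in bases from the start of Phospho1; the strand is in parentheses, and Zfp652 begins beyond the left edge. Only the first Phospho1 exon, 211 bases long, is not covered by an exon of Zfp652, and Abi3 covers 1708 bases of the last exon.

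The phosphate transporter genes differed in level and in pattern. Slc20a2 (ENSMUSG00000037656, plus strand of chromosome 8, 22476788 to 22569612) was at 24.0 and 17.3 CPM in Sfrp4-/- libraries and at 26.2 and 16.6 CPM in WT libraries, a log2 fold change of -0.05 ± 0.36 (SE, n = 2 each; edgeR adjusted p = 1.00). The genotypes overlapped fully. With library totals in place of composition factors the sign turned, to 0.18, while the median of all tested genes moved to 0.24. Slc20a1 (ENSMUSG00000027397, plus strand of chromosome 2, 129198764 to 129211616) had 59 and 57 counts in Sfrp4-/- libraries and 14 and 30 counts in WT libraries, or 3.19 and 2.77 CPM against 0.934 and 1.75 CPM. Both Sfrp4-/- libraries lay above both WT libraries, as they did in 15.0% of all tested genes. Slc20a1 was the 1 gene of 7 without overlap in either direction, against 27.5% of all tested genes, so that separation was common in these libraries. The means were 2.98 ± 0.292 CPM in Sfrp4-/- and 1.34 ± 0.576 CPM in WT libraries (SD, n = 2 each), and the log2 fold change was 1.14 ± 0.73 (SE; edgeR adjusted p = 1.00, unadjusted p = 0.163). It stayed between 0.77 and 1.66 with each library left out. Of the exon bases of Slc20a1, 13.1% are shared with genes on the opposite strand, 280 bases with Gm4430 and 452 with 9830144P21Rik. Gm4430 had the same direction, at 1.73 and 1.56 CPM in Sfrp4-/- libraries and 1.07 and 0.816 CPM in WT libraries, and without strand its reads cannot be told apart from those of Slc20a1 on the shared bases. Slc20a2 exceeded Slc20a1 per length by 6.76 and 5.59 times in Sfrp4-/- libraries and by 25.2 and 8.5 times in WT libraries.

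In the phosphate hormone axis Phex was well measured and Fgf23 was not. Phex, which encodes a membrane endopeptidase of osteoblasts and osteocytes (ENSMUSG00000057457, minus strand of chromosome X, 157162075 to 157415312), was at 99.9 and 43.0 CPM in Sfrp4-/- libraries and at 113 and 97.5 CPM in WT libraries. Sfrp4-/- replicate 1 lay within the WT range and replicate 2 lay well under it. The log2 fold change was -0.56 ± 0.43 (SE, n = 2 each; edgeR adjusted p = 1.00), with -0.07 when Sfrp4-/- replicate 2 was left out and -1.29 when Sfrp4-/- replicate 1 was left out. Fgf23 (ENSMUSG00000000182, plus strand of chromosome 6, 127072902 to 127081408) had 1 count in Sfrp4-/- replicate 1 and 0 in the other libraries. None of its exon bases is shared with another gene. A count of 0 over both WT libraries allows up to 3 counts, or 0.0933 CPM, so no difference was detectable at this depth. Dmp1, a matrix protein gene of osteocytes whose loss is known to raise FGF23, was at 1592 and 514 CPM in Sfrp4-/- libraries and 1007 and 958 CPM in WT libraries.

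Pth1r (ENSMUSG00000032492, minus strand of chromosome 9, 110722085 to 110747145) was measured with 12295 to 20068 counts. It was at 897 and 598 CPM in Sfrp4-/- libraries and at 1338 and 834 CPM in WT libraries, and the genotypes overlapped. The means were 747 ± 211 CPM in Sfrp4-/- and 1086 ± 357 CPM in WT libraries (SD, n = 2 each), which gave a log2 fold change of -0.54 ± 0.40 (SE; edgeR adjusted p = 1.00). It was -0.15 without WT replicate 1, -0.27 without Sfrp4-/- replicate 2, -0.85 without WT replicate 2 and -0.86 without Sfrp4-/- replicate 1.

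Replicate libraries of a genotype differed widely in these genes. In 6 of the 7 tested genes, all but Slc20a1, replicate 1 was above replicate 2 in both genotypes, against 32.8% of all tested genes, and the reverse was seen in 0 of 7, against 31.2%. Alpl, Smpd3, Phex and Pth1r had their libraries in the same order from high to low, which was WT replicate 1, Sfrp4-/- replicate 1, WT replicate 2 and Sfrp4-/- replicate 2. That order was read from the values of these genes themselves, so its share among them is a description and no test. It was found in 4 of the 7, against 8.17% of all tested genes at any level. The order also held for these 4 when levels were scaled by library totals alone. Col1a1, the type I collagen gene that is among the most abundant transcripts of these cells, had it too, at 64953 and 27190 CPM in Sfrp4-/- libraries and 109955 and 35489 CPM in WT libraries. The summed level of 10 chondrocyte genes ran in this order as well, at 1078 and 382 CPM in Sfrp4-/- libraries and 3043 and 1032 CPM in WT libraries, with none of the genes at 0 in all 4 libraries and 3 at 0 in some. Most of that sum was Col11a1, at 887 and 308 CPM in Sfrp4-/- and 2541 and 909 CPM in WT libraries. Col11a1 itself did not have the order, because WT replicate 2 lay above Sfrp4-/- replicate 1. Acan, Col2a1 and Comp on the list did have it. Both Sfrp4-/- libraries lay below both WT libraries in 2 of the 10, Col11a1 and Col10a1, a collagen gene of hypertrophic chondrocytes at 0.108 and 0.146 CPM in Sfrp4-/- and 71.0 and 3.91 CPM in WT libraries, against 12.6% of all tested genes. Sox9, the chondrocyte transcription factor gene, had the other direction, at 20.7 and 11.3 CPM in Sfrp4-/- and 12.3 and 8.04 CPM in WT libraries. The erythroid list ran in exactly the reverse order, with sums of 2074 and 2652 CPM over 10 genes in Sfrp4-/- libraries and 739 and 2160 CPM in WT libraries. So did the summed myeloid list of 14 genes, at 1274 and 1823 CPM in Sfrp4-/- and 643 and 1551 CPM in WT libraries. Single genes of that list differed, and S100a8, S100a9 and Camp had this reverse order. Mpo had the order of Alpl instead, at 48.6 and 10.8 CPM in Sfrp4-/- and 82.2 and 44.5 CPM in WT libraries. Elane had the order of Alpl too, at 45.4 and 11.1 CPM in Sfrp4-/- and 65.4 and 32.6 CPM in WT libraries. None of the erythroid or myeloid genes was at 0 in any library, and both Sfrp4-/- libraries lay above both WT libraries in 6 of the 10 and 5 of the 14, against 15.0% of all tested genes. The part of these cells in the levels of Alpl, Smpd3, Phex and Pth1r was not tested. The sum of the 10 osteoblast genes did not have the order, at 60544 and 38054 CPM in Sfrp4-/- libraries and 40355 and 53777 CPM in WT libraries. Most of that sum was Spp1, the osteopontin gene. Of the 10 osteoblast genes Col22a1 alone had the order, against 8.17% of all tested genes. It was at 288 and 91.5 CPM in Sfrp4-/- and 475 and 189 CPM in WT libraries. Runx2, the osteoblast transcription factor gene, was at 135 and 113 CPM in Sfrp4-/- libraries and 125 and 113 CPM in WT libraries.

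**Figure D4:**
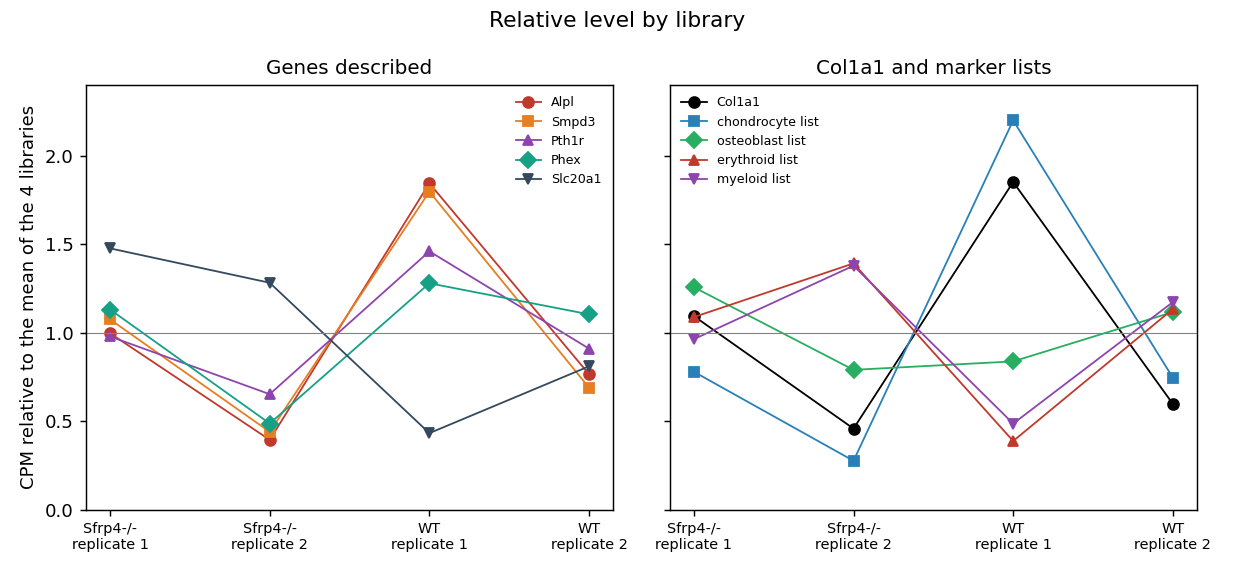
CPM in each library relative to the mean of the 4 libraries, for 5 of the genes (left) and for Col1a1 and the summed chondrocyte, osteoblast, erythroid and myeloid lists (right); lines join the values of a gene or list for reading only. Alpl and Smpd3 peak in WT replicate 1 (2174 and 662 CPM) together with Col1a1 and the chondrocyte list, where the erythroid and myeloid lists are at their lowest (739 and 643 CPM).

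The genes with the most alike pattern were sought among 4993 other protein-coding genes at a mean of at least 20 CPM, as the smallest root-mean-square difference of centred log2 levels over the 4 libraries. With so few libraries many genes come close, and likeness says nothing of shared control. Nearest to Alpl were Pcsk5 (0.0296 log2 units) and Adamts2 (0.0629). Pcsk5, which encodes a proprotein convertase, was at 92.7 and 38.5 CPM in Sfrp4-/- libraries and 180 and 74.0 CPM in WT libraries. Nearest to Smpd3 were Unc5b (0.0589) and Chpf (0.0620), to Pth1r Slc35f6 (0.0369) and Wisp1 (0.0380), and to Phex Sgca (0.0424) and Clcn4 (0.0455). Slc20a2 was nearest to Ndrg4 (0.0164) and Phc2 (0.0248). Enpp1 had no close partner, with Aqp1 at 0.253 and Postn, the periostin gene, at 0.274.

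Other genes of the same processes were taken from 3 lists, and 0 of their members were called in either direction, as for all genes. The list of matrix vesicle and pyrophosphate genes had 14 of 16 members tested, 6 with log2 fold changes above 0 and 8 below. Its median was -0.20, and -0.64 without Sfrp4-/- replicate 1. When scaled by library totals it was 0.01, where the median of all tested genes was 0.24. Entpd5, an ectonucleotidase gene needed for mineralization in zebrafish, had the lowest p. It was at 20 and 13.3 CPM in Sfrp4-/- libraries and 28.2 and 30.6 CPM in WT libraries, without overlap, a log2 fold change of -0.82 ± 0.33 (SE, n = 2 each; edgeR adjusted p = 1.00, unadjusted p = 0.043). Both Sfrp4-/- libraries lay below both WT libraries in 12.6% of all tested genes. Enpp3, a relative of Enpp1, was also lower without overlap, at 1.89 and 1.36 CPM in Sfrp4-/- against 2.87 and 2.91 CPM in WT libraries (log2 fold change -0.83 ± 0.68). Smpd1, the acid sphingomyelinase gene, had -0.56 ± 0.40, and Chka, a choline kinase gene, had 0.52 ± 0.33 with both Sfrp4-/- libraries on top. Ank, whose protein controls the export of pyrophosphate and ATP, was at 186 and 89.7 CPM in Sfrp4-/- and 109 and 112 CPM in WT libraries. The vesicle annexins Anxa5 and Anxa2 were abundant and near 0 in fold change, at 0.14 ± 0.33 and 0.00 ± 0.31. These last 3 were named after their values were seen.

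The list of phosphate transport and hormone genes had 9 of 14 members tested, 6 above 0 and 3 below, with a median of 0.10 that ranged from -0.24 to 0.62 with each library left out. The renal and intestinal transporter genes Slc34a1 and Slc34a3, Kl, which encodes the FGF23 co-receptor klotho, and Cyp24a1 of vitamin D breakdown had 0 counts in every library, and Slc34a2 had 2 counts in Sfrp4-/- replicate 2 alone. Fgfr1, the receptor gene that FGF23 signals through with klotho, was at 124 and 77.7 CPM in Sfrp4-/- libraries and 190 and 91.1 CPM in WT libraries (log2 fold change -0.48 ± 0.44, SE). Mepe, a matrix phosphoglycoprotein gene of osteocytes, had 0.58 ± 0.50, Vdr, the vitamin D receptor gene, 0.30 ± 0.35, and Fam20c, the kinase gene of secreted phosphoproteins, 0.20 ± 0.38. The genotypes overlapped in all 9 tested genes of the list, while they did not overlap in 27.5% of all tested genes. The phosphate exporter gene Xpr1, named after its values were seen, was at 14.9 and 12.0 CPM in Sfrp4-/- and 18.5 and 7.64 CPM in WT libraries.

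For PTH receptor signalling, 21 of 24 genes were tested, 13 above 0 and 8 below, with a median of 0.27. The median was 0.03 without Sfrp4-/- replicate 1. When scaled by library totals it was 0.47, where the median of all tested genes was 0.24. Fos, an immediate early gene that PTH induces in bone cells, had the lowest p. It was at 226 and 360 CPM in Sfrp4-/- libraries and 122 and 159 CPM in WT libraries, a log2 fold change of 1.06 ± 0.36 (SE, n = 2 each; edgeR adjusted p = 1.00, unadjusted p = 0.023). The nuclear receptor genes Nr4a2 and Nr4a1, which PTH also induces, lay on the other side at -0.95 ± 0.50 and -0.79 ± 0.49. Nr4a2 was high in a single library, at 32.8 and 32.3 CPM in Sfrp4-/- libraries and 94.0 and 32.1 CPM in WT libraries, and without WT replicate 1 its value was 0.03. Pde4d, a gene for an enzyme that degrades cyclic AMP, had 0.91 ± 0.59, with both Sfrp4-/- libraries above both WT libraries. That held for 6 of the 21 genes and the reverse for 2, against 15.0% and 12.6% of all tested genes. The ligand gene Pth had 0 counts in every library, and Pthlh, which encodes the local ligand, was at 1.24 and 0.730 CPM in Sfrp4-/- and 0.467 and 0 CPM in WT libraries. Pthlh was named after its values were seen.

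**Figure D5:**
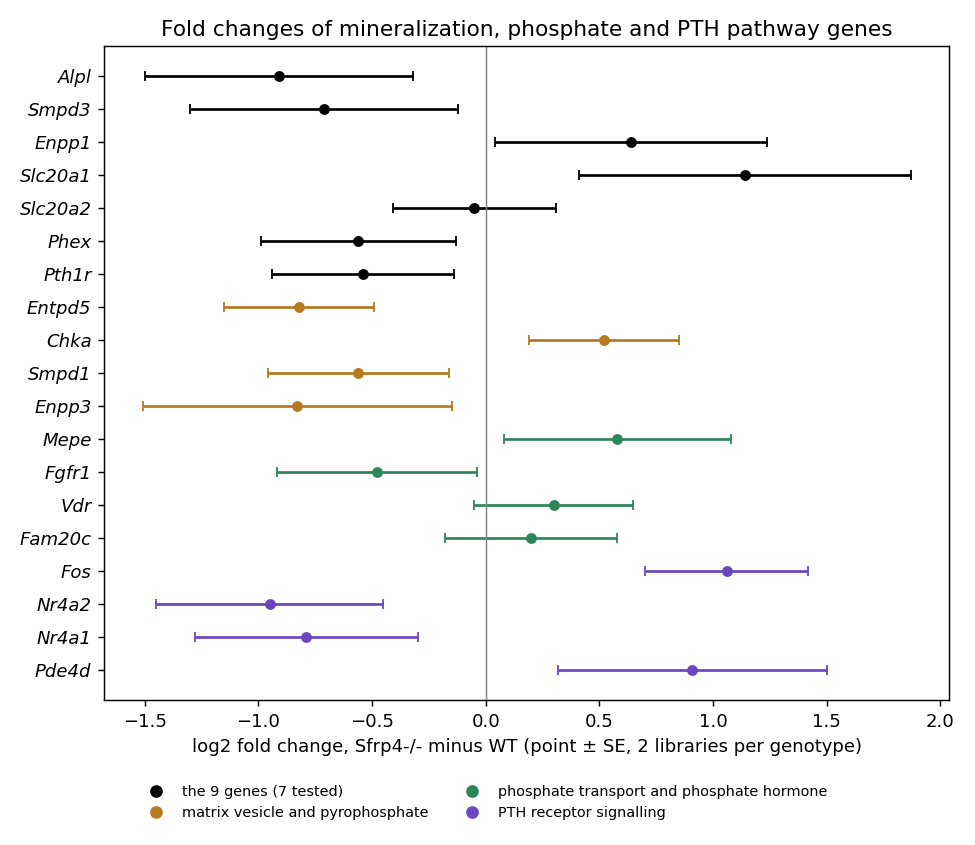
Log2 fold change (Sfrp4-/- minus WT, point and SE, 2 libraries per genotype) of the 7 tested genes of the set and of the 4 genes with the lowest unadjusted p in each of 3 lists. The values run from -0.95 for Nr4a2 to 1.14 for Slc20a1, and none of these 19 genes passed the edgeR test adjusted over all genes.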

How the data were processed

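Sorted periosteal cells were profiled with ultra-low-input, non-directional mRNA libraries, per the labels' protocols. The authors deposited raw counts per gene with coordinates, and gene lengths in bases (other columns were used only as identifiers). CASAVA, HISAT2 2.0.5, featureCounts 1.00-p3, DESeq2 1.20.0 and mm10 are named, per the submitters' processing notes, without roles; options for counting are not given in any source used here. Groups and replicate numbers came from the titles. Replicate libraries were distinct, with a chi-square of 133.3 per degree of freedom between the Sfrp4-/- pair and 163.0 between the WT pair. P-values measure the spread between pools, which may be technical. In edgeR 4.0.16 (R 4.3.3), genes were kept with filterByExpr, scaled with TMM factors (0.989 and 1.19 in Sfrp4-/-, 0.877 and 0.972 in WT libraries) and tested with glmQLFit and glmQLFTest on genotype, with Benjamini-Hochberg adjustment over all tested genes. Each SE is the absolute log2 fold change over the square root of F. TPM used the deposited lengths, and floors cover counting error only. The comparison tools were DESeq2 1.42.0 and limma 3.58.1. Of 54532 gene identifiers, 54409 were in GENCODE M21. The gene set and lists were chosen with earlier results of these data known. The genes named were the 9 genes, Sfrp4, the 4 with the lowest p in each list, the 2 most alike to each tested gene of the set at 20 CPM or more, and the markers; others are named as chosen after their values were seen. Marker lists covered the sorted cells, excluded antigens, and osteoblast, osteocyte, chondrocyte, osteoclast, erythroid, myeloid, lymphoid and endothelial genes. Ly76 had no match in the sheet.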

Additional observations from a re-analysis of the deposited data

How the results depend on the processing

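Alternatives changed the scaling (median-of-ratios factors, or library totals alone), the filter (none, or 5 CPM in at least 2 libraries), the genes fitted (protein-coding), the test (robust edgeR, limma-voom, DESeq2), the design (a replicate block) and the libraries (each left out). None of the 9 genes and none of the 3 lists' genes passed in any of them, nor did any of the 9 at an adjusted p under 0.10. Of 243 values for 19 named genes other than Sfrp4, 233 kept their direction, and the lowest adjusted p was 0.497. Most of these values were refits of all 4 libraries, so the share says little about stability between libraries. Apart from Slc20a2 with library totals, every value that turned had a library left out. Calls over all genes were 0 in the test reported, 20 in edgeR without the filter, 7 in DESeq2, also without the filter, and 2 to 7 with each library left out. The median log2 fold change of the 7 tested genes ranged from -0.86 to 0.14 with each library left out, and that of the matrix vesicle list from -0.64 to 0.15. Library totals alone moved the median of all genes to 0.24 and turned Slc20a2 to 0.18. With each library left out, ranges that crossed 0 were -1.50 to 0.14 for Smpd3, -0.61 to 1.31 for Enpp1, -0.35 to 0.32 for Slc20a2, -0.92 to 0.15 for Fgfr1, -0.24 to 0.55 for Fam20c, -0.01 to 0.67 for Vdr and -1.54 to 0.03 for Nr4a2. For the other named genes of the lists the ranges were -1.03 to -0.17 for Smpd1, 0.30 to 0.73 for Chka, -1.08 to -0.60 for Enpp3, -1.15 to -0.55 for Entpd5, 0.14 to 1.05 for Mepe, 0.42 to 1.34 for Pde4d, -0.84 to -0.74 for Nr4a1 and 0.70 to 1.36 for Fos. WT replicate 1 was the library whose absence turned Smpd3, Fgfr1 and Nr4a2, Sfrp4-/- replicate 1 turned Enpp1 and Fam20c, WT replicate 2 turned Fam20c and Vdr, and Sfrp4-/- replicate 2 or WT replicate 1 turned Slc20a2. The lone library is then assumed to vary like those of the other genotype, and the causes were not tested.

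Replicate numbers are shared between genotypes, but the labels do not say that they mark a shared day or litter. Across 13737 genes the deviations of same-numbered libraries correlated at 0.252, and at 0.615 across those with a mean of 20 CPM or more. With the number as a block, 1 gene was called (Sfrp4, edgeR adjusted p = 0.0218), and the log2 fold changes were -0.92 for Alpl, -0.69 for Smpd3, -0.68 for Phex and -0.53 for Pth1r, with edgeR adjusted p of 0.625, 0.721, 0.764 and 0.755 (unadjusted p = 0.00237, 0.00734, 0.0373 and 0.0313). In that fit 864 of the 13737 genes had an unadjusted p under 0.05, against 291 without the block. The block leaves 1 residual degree of freedom per gene, so these p-values rest largely on the variance shared across genes.

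Slc20a1, with 14 to 59 counts, and Fgf23 are limited by low counts, and Phospho1 by the exon bases it shares. The 2 pools per genotype limit every comparison.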

Other observations

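Marker lists not described above are given here by their sums. The 9 osteocyte genes, of which Phex and Fgf23 are members of the set, summed to 2090 and 1012 CPM in Sfrp4-/- libraries and 1484 and 1568 CPM in WT libraries. The 8 osteoclast genes summed to 3927 and 3622 CPM in Sfrp4-/- libraries and 2997 and 3505 CPM in WT libraries, with 0 of the 8 at 0. The 8 lymphoid genes summed to 39.7 and 61.2 CPM in Sfrp4-/- and 26.7 and 49.3 CPM in WT libraries, with Jchain and Cd3e at 0 in all. The 7 endothelial genes summed to 3.78 and 3.11 CPM in Sfrp4-/- libraries and 21.4 and 0 CPM in WT libraries, so WT replicate 1 alone held more than traces of them. The 6 genes of the sorted cells summed to 163431 and 64934 CPM in Sfrp4-/- and 251669 and 97440 CPM in WT libraries. That is the library order of Alpl, and Col1a1 and Col1a2, which dominated the sum, both had it. Ctsk, Cd200, Prrx1 and Postn did not have it. Ctsk was at 1461 and 1684 CPM in Sfrp4-/- and 1054 and 2050 CPM in WT libraries. Cd200 was at 442 and 465 CPM in Sfrp4-/- and 486 and 669 CPM in WT libraries.

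Gnas, which encodes the G protein subunit that couples PTH1R to cyclic AMP, was measured low, at 8.15 and 5.30 CPM in Sfrp4-/- libraries and 5 and 5.42 CPM in WT libraries. It was named after its values were seen. Of its annotated exon bases 22.0% are shared with genes on the opposite strand. How such reads were counted is not given in the sources used here, so these values are not read as the level of Gnas. Gnas remained in the counts and the median of the PTH receptor signalling list.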
